A study of Rattus norvegicus with 6 samples.

Results

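The enzymes that handle glutathione and reactive oxygen species were followed in rat brain microvascular endothelial cells (rBMECs) exposed to homocysteine (Hcy). Members were the genes named as glutathione transferases (Gst and Mgst), glutathione peroxidases (Gpx), peroxiredoxins (Prdx), glutaredoxins (Glrx) or superoxide dismutases (Sod), together with Cat, Gsr, Gss, Txn1, Txn2 and Txnrd2. Matching by gene name found 53 of the 33566 genes in the deposited count table. Of these 53 genes, 42 had at least 10 reads summed over all libraries and were tested. The Hcy group comprised 3 libraries of rBMECs treated with Hcy for 24 h, at 100 μM according to the labels, whereas the treatment protocol describes a solution of 50 μM. The Veh group comprised 3 libraries of rBMECs given the water vehicle. Both groups were unmodified primary cells isolated with a kit from the cerebral cortex, according to the labels, or the forebrain, according to the methods, of Sprague-Dawley rats aged 18 to 22 days, purified in culture and used after a passage, and the animals behind each replicate are not given. The design text calls the replicates biological, but no source says whether they came from separate isolations, so p-values measure the spread between these libraries.

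Glutathione is a small thiol that donates electrons to peroxidases and is joined to reactive compounds by transferases. Superoxide dismutases turn superoxide into hydrogen peroxide, which catalase, glutathione peroxidases and peroxiredoxins remove. Glutathione reductase and thioredoxin reductase restore glutathione and thioredoxin with electrons from NADPH. Hcy is itself a thiol amino acid and a precursor of cysteine, from which glutathione is built, and endothelial cells of the brain meet it in the blood.

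The libraries held 14024997 to 16764584 reads on genes, so that 3 reads corresponded to 0.178 to 0.215 CPM (reads scaled to library size, normalized here with edgeR's TMM factors), and this level was taken as the floor for counting error. Of 14 endothelial markers, 12 were listed and all 12 were above the floor in every library, with a summed level of 8866 to 9252 CPM in Hcy and 7283 to 8696 CPM in Veh libraries. All 9 mural markers were above the floor in at least 1 library, with a sum of 679 to 707 CPM in Hcy and 1123 to 1351 CPM in Veh libraries, of which Tagln, an actin-binding protein, held most. The 6 microglial markers summed to at most 1.87 CPM, with Cx3cr1, P2ry12 and Ptprc at 0, and the 5 astrocyte markers to at most 1.11 CPM, with Aqp4 and Slc1a2 at 0. The 4 neuronal markers summed to 6.85 to 9.77 CPM in Hcy and 5.22 to 7.18 CPM in Veh libraries, with Rbfox3 and Snap25 at 0, and the 5 oligodendrocyte markers to 10.6 to 12.4 CPM over all libraries, most of it Mog, with Mag at 0. Fibroblast markers, 5 of 6 listed and all 5 above the floor in at least 1 library, summed to 44.9 to 68.7 CPM in Hcy and 63.5 to 91.2 CPM in Veh libraries. In such bulk samples, fewer cells of a type and less RNA per cell cannot be told apart. Veh replicate 3 stood apart from the other libraries on the second principal component (26.2% of the variance), at 30.4 against −19.0 to 9.92, and the members' values without it are given after those with all 6 libraries.

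In the Hcy comparison, 1 member was downregulated and none was upregulated. The downregulated member was Gsta1, an alpha-class transferase, at a level of 1.27 ± 0.178 CPM in Hcy and 4.15 ± 1.39 CPM in Veh rBMECs (mean ± SD, n = 3 in each group, as throughout). This was 1 of 42 members at an adjusted p of at most 0.05 in edgeR's quasi-likelihood test (p-values adjusted by Benjamini-Hochberg), beside 2.34% of all 14603 genes tested in either direction and 1.01% in the lower direction. With the added threshold of a log2 fold change of at least 1 in size, Gsta1 was again the 1 member called, beside 0.486% of all genes in either direction and 0.233% in the lower direction. As a share, 1 of 42 is 2.38%, near the 2.34% of all genes called in either direction without the fold threshold, and above the other 3 backgrounds on the strength of a single gene. Without the adjustment, 6 members were lower and 3 were higher at a p of at most 0.05 in edgeR's test, beside 5.95% and 7.44% of all genes. The balance turned without Veh replicate 3, with 4 lower and 6 higher beside 10.2% and 10.9% of all genes. The log2 fold change was below 0 for 26 members and above 0 for 16, and 53.1% of all genes lay below 0. The median log2 fold change was −0.07 over the 42 members and −0.02 over all genes. DESeq2 called 3 members lower and 1 higher at the same adjusted p, beside 2.18% and 2.91% of the genes to which it gave an adjusted p.

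Most of these enzymes were abundant in rBMECs, and their levels are compared per kb of the gene length listed in the deposited table. Gstp1, the pi-class transferase, led all members at 1372 CPM per kb on average over both groups. It was followed by the redox protein Txn1 at 718, the peroxiredoxin Prdx1 at 502, the glutathione peroxidase Gpx1 at 292, the cytosolic superoxide dismutase Sod1 at 278 and Prdx2 at 275 CPM per kb. These levels depend on the listed gene lengths, which were short for Txn1, Glrx2 and Mgst2, at 315, 474 and 384 bases. At the low end, Sod3 stood at 0.5 and Gsto2 at 0.249 CPM per kb. All members together held 0.453, 0.422 and 0.431% of the reads in Hcy replicates 1, 2 and 3, and 0.459, 0.464 and 0.569% in Veh replicates 1, 2 and 3. The highest Hcy share lay just below the lowest Veh share. Gstp1 alone made up 20.2, 19.9 and 20.8% of the members' reads in Hcy and 24.4, 23.9 and 25.4% in Veh replicates 1, 2 and 3. Without Gstp1 the members' share overlapped between groups, at 0.338 to 0.361% in Hcy and 0.347 to 0.424% in Veh libraries.

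**Figure D1:**
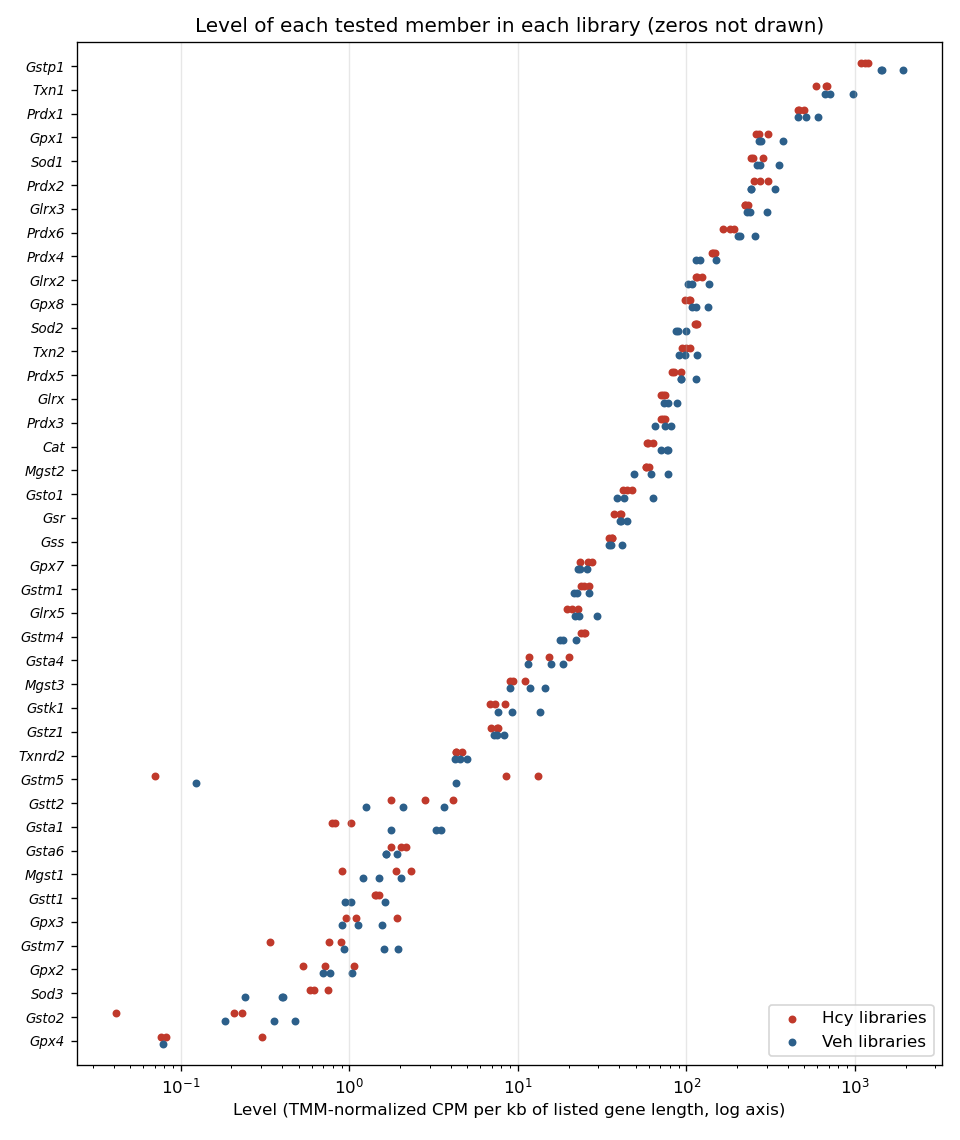
Level of each of the 42 tested members in each library, in TMM-normalized CPM per kb of listed gene length on a log axis, with Hcy libraries in red and Veh libraries in blue (libraries at 0 are not drawn). Gstp1 leads at a mean of 1372 CPM per kb, most abundant members have Hcy and Veh points within a narrow band, and Gstm5 is scattered within both groups.

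For the 27 members at 10 CPM or more on average, each gene's interval gives a range for its change in these 6 libraries. The intervals are not adjusted for the number of genes. The 95% confidence interval of the log2 fold change lay between −1 and 1 for 27 of these 27 members, and between −0.5 and 0.5 for 21 of them. Among all 42 tested members, 33 had an interval within −1 and 1 and 33 had an interval that included 0. No Hcy library overlapped any Veh library in 7 members that were lower (Gsta1, Cat, Gstp1, Prdx6, Gstm7, Gpx8 and Prdx5) and in 3 that were higher (Sod2, Gstm4 and Sod3). Of all genes, 9.27% and 10.8% were separated in this way in the lower and the higher direction, so that 7 of 42 is above its share and 3 of 42 is not. Without Veh replicate 3, 7 members were lower and 8 were higher without overlap, beside 18.9% and 19.5% of all genes, and neither count was above its background.

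**Figure D2:**
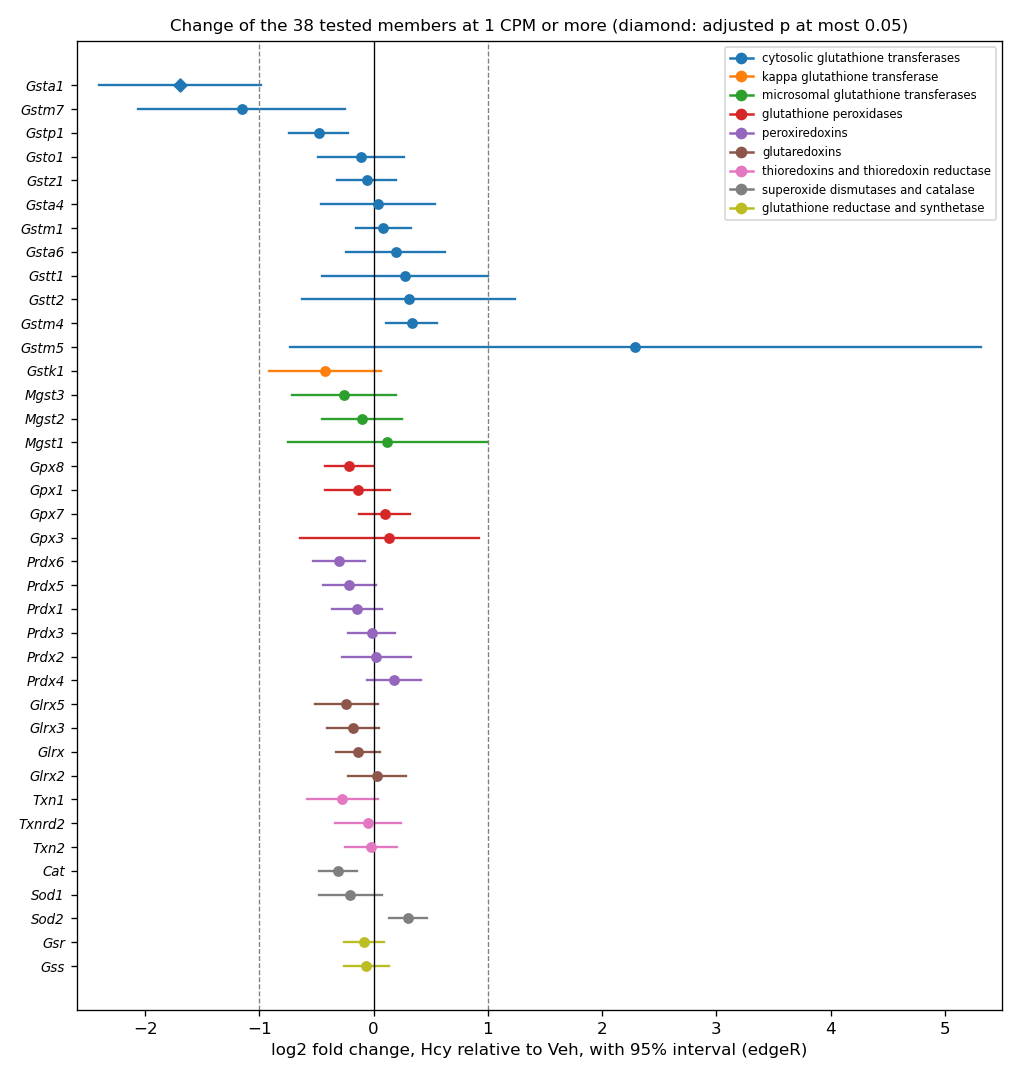
Log2 fold change of Hcy relative to Veh with its 95% interval from edgeR, for the 38 tested members at 1 CPM or more on average, grouped by enzyme family (dashed lines mark −1 and 1). Gsta1, drawn as a diamond at −1.69, is the member with an adjusted p of at most 0.05, and Gstm5 has the widest interval, from −0.73 to 5.31.

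Glutathione transferases join glutathione to electrophilic compounds so that the cell can export them. The 22 cytosolic members included 13 that were tested, 6 with a negative and 7 with a positive log2 fold change, and a median of 0.04. Gsta1 (ENSRNOG00000013484, chromosome 9, 27368272 to 27452902, minus strand, as deposited with no build named) had 1.15, 1.48 and 1.19 CPM in Hcy replicates 1, 2 and 3 and 2.55, 4.78 and 5.12 CPM in Veh replicates 1, 2 and 3. Every Hcy library was below every Veh library, and Veh replicate 1 lay nearest to the Hcy group. The log2 fold change was −1.69 (SE 0.31, 95% interval −2.40 to −0.99, edgeR with Benjamini-Hochberg adjusted p = 0.0272). These levels rest on 16, 22 and 20 reads in Hcy and 43, 75 and 74 reads in Veh replicates. The call was lost when Hcy replicate 1, Hcy replicate 2, Hcy replicate 3 or Veh replicate 2 was left out (edgeR, adjusted p = 0.135, 0.0888, 0.14 and 0.0978) and was kept without Veh replicate 1 or 3, while the log2 fold change stayed between −1.95 and −1.52. Of the 9 mural markers, the contractile genes Tagln, Acta2 and Cnn1 were downregulated as Gsta1 was, and none was upregulated. Tagln, at 572 to 590 CPM in Hcy and 976 to 1158 CPM in Veh libraries, had a log2 fold change of −0.88 (edgeR, adjusted p = 0.000801). Acta2 and Cnn1 had −0.64 and −1.39 (edgeR, adjusted p = 0.0248 and 0.00177). The other 6 mural markers were at most 3.63 CPM in any library and did not pass, 2 with a negative log2 fold change (Kcnj8 and Myh11) and 4 with a positive one (Pdgfrb 0.73, Rgs5 1.26, Abcc9 0.87 and Cspg4 1.66). The part of the mural marker genes in the Gsta1 difference was not tested. In the deposited annotation the row named Gsta1 carries the protein name GSTA3_RAT and spans the Gsta3 row on the opposite strand. The Gsta3 row held 0 reads in all libraries, and reads of related alpha-class genes may not have been told apart.

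Gstp1 (ENSRNOG00000018237, chromosome 1, 219291679 to 219294147, minus strand) is a cytosolic transferase expressed in many tissues. It had 921, 835 and 888 CPM in Hcy replicates 1, 2 and 3 and 1116, 1094 and 1478 CPM in Veh replicates 1, 2 and 3. The Hcy libraries were all below the Veh libraries, and Veh replicate 3 was far above the other 2. Its log2 fold change was −0.48 (SE 0.11, 95% interval −0.74 to −0.22), which did not pass the test (edgeR with Benjamini-Hochberg adjusted p = 0.0743). Without Veh replicate 3 it was −0.33, a smaller difference over a smaller spread, and it passed (edgeR, adjusted p = 0.00571). It also passed in DESeq2 (adjusted p = 0.00226) and in edgeR with no count filter (adjusted p = 0.0194). These were 3 of 14 alternative fits. Gstp1 did not pass when any other library was left out (edgeR, adjusted p up to 0.26).

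The promoters of these transferases and of Cat and Sod2, the 4 members with the smallest p, are shown because the antioxidant response element, the site through which the factor NRF2 acts, lies in front of many genes of this kind. The sequences are RefSeq windows of the GRCr8 assembly from 250 bases before to 50 bases after the gene start, on the strand of the gene, and their positions are not those of the deposited table. Capitals mark matches to TGACNNNGC, the core of the element, searched on both strands.

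Gsta1, chr9:31216483-31216782, minus strand: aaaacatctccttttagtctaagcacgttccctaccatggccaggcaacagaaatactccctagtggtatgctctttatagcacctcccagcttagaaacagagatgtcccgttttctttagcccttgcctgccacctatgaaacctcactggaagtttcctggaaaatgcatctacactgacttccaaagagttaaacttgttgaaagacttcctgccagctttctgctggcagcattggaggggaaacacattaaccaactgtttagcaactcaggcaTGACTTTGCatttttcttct

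Gstp1, chr1:210769656-210769955, minus strand: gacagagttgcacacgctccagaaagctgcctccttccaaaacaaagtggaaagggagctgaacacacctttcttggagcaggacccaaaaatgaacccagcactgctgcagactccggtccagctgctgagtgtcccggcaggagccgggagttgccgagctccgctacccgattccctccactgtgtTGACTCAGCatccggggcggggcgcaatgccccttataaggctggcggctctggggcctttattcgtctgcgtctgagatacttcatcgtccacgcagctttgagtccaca

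Cat, chr3:110329477-110329776, minus strand: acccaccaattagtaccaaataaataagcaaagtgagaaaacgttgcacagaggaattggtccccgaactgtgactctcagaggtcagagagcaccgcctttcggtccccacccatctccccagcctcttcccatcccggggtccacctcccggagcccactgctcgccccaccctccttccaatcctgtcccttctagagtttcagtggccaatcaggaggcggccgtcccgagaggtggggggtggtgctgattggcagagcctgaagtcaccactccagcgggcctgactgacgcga

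Sod2, chr1:50050119-50050418, minus strand: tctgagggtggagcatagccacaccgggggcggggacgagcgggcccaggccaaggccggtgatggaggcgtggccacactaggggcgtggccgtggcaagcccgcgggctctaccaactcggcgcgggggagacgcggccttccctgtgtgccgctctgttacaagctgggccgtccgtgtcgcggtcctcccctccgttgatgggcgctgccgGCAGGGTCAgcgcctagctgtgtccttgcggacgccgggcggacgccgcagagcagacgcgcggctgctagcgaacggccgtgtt

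The match in Gsta1, TGACTTTGC, began at base 31 after the gene start, and the match in Gstp1, TGACTCAGC, began 61 bases before it. The match in Sod2 was on the opposite strand, where it reads GCAGGGTCA in the orientation printed, and began 35 bases before the gene start. The Cat window held no match. Of the 53 members, 44 had a window, and 12 of these (27.3%) held at least 1 match, as did 10 of the 35 tested members with a window (28.6%) and 3602 of all 27457 genes with a window (13.1%). The overlapping AP-1 motif was not separated from these matches, and a match is a description of the letters in the window.

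Of the other cytosolic transferases, Gstm4, of the mu class, was at 43.4, 44.0 and 41.7 CPM in Hcy and 31.2, 32.3 and 38.9 CPM in Veh replicates 1, 2 and 3. Its groups did not overlap, and the log2 fold change was 0.33 (SE 0.10, edgeR, Benjamini-Hochberg adjusted p = 0.153). Without Veh replicate 3, Gstm4 was upregulated with a log2 fold change of 0.44 (edgeR, adjusted p = 0.00625). Gstm7, also of the mu class, was near the floor at 1.51, 0.672 and 1.79 CPM in Hcy and 3.21, 1.85 and 3.88 CPM in Veh replicates, with a log2 fold change of −1.16 (SE 0.40, edgeR, adjusted p = 0.227). The groups of Gstm7 did not overlap, but Hcy replicate 3 and Veh replicate 2 were almost level. Both genes lie among 7 mu-class rows within 154 kb of chromosome 2 (210685197 to 210839295 as deposited), and the neighbour Gstm1 had a log2 fold change of 0.08 (SE 0.11). The genes of this cluster therefore had values in both directions. The Gstm7 row overlaps Gstm6, Gstm3l and a further row on the same strand, and reads shared between them may not have been told apart.

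Gstm5, at the edge of the same cluster, had 114, 1 and 212 reads in Hcy replicates 1, 2 and 3 and 2, 65 and 0 reads in Veh replicates 1, 2 and 3. Libraries with 65 to 212 reads and libraries with almost none thus occurred in both groups. Its log2 fold change was the largest positive value among members at 1 CPM or more, at 2.29. The SE was 1.34 and the interval ran from −0.73 to 5.31 (edgeR, Benjamini-Hochberg adjusted p = 0.526). In fits that left out each library in turn, the log2 fold change ranged from 1.52 to 6.61. A further row, Gstm3 on an unplaced scaffold, carries the same protein name, GSTM5_RAT, and held 0 reads. The remaining tested cytosolic transferases were Gsto1, Gsto2, Gstz1, Gsta4, Gsta6, Gstt1 and Gstt2, with log2 fold changes from −1.05 for Gsto2 to 0.31 for Gstt2. Gsto1 and Gsto2 overlap on the same strand. No read was counted for Gsta2, Gsta3, Gsta5, Gstm3, Gstm3l, Gstm6l and Gstt4 in any library, which allows up to 0.178 to 0.215 CPM, and 1 read was counted in all for each of Gstm6 and Gstt3. Kappa-class Gstk1, of mitochondria and peroxisomes, had a log2 fold change of −0.43 (SE 0.22), with 6.97, 6.51 and 8.06 CPM in Hcy and 7.30, 8.86 and 12.9 CPM in Veh replicates, which overlapped. Of the microsomal transferases, which lie in membranes, Mgst2 was highest per length at 60.6 CPM per kb and had a log2 fold change of −0.10 (SE 0.16), Mgst3 had −0.26 (SE 0.20) and Mgst1 had 0.12 (SE 0.38).

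**Figure D3:**
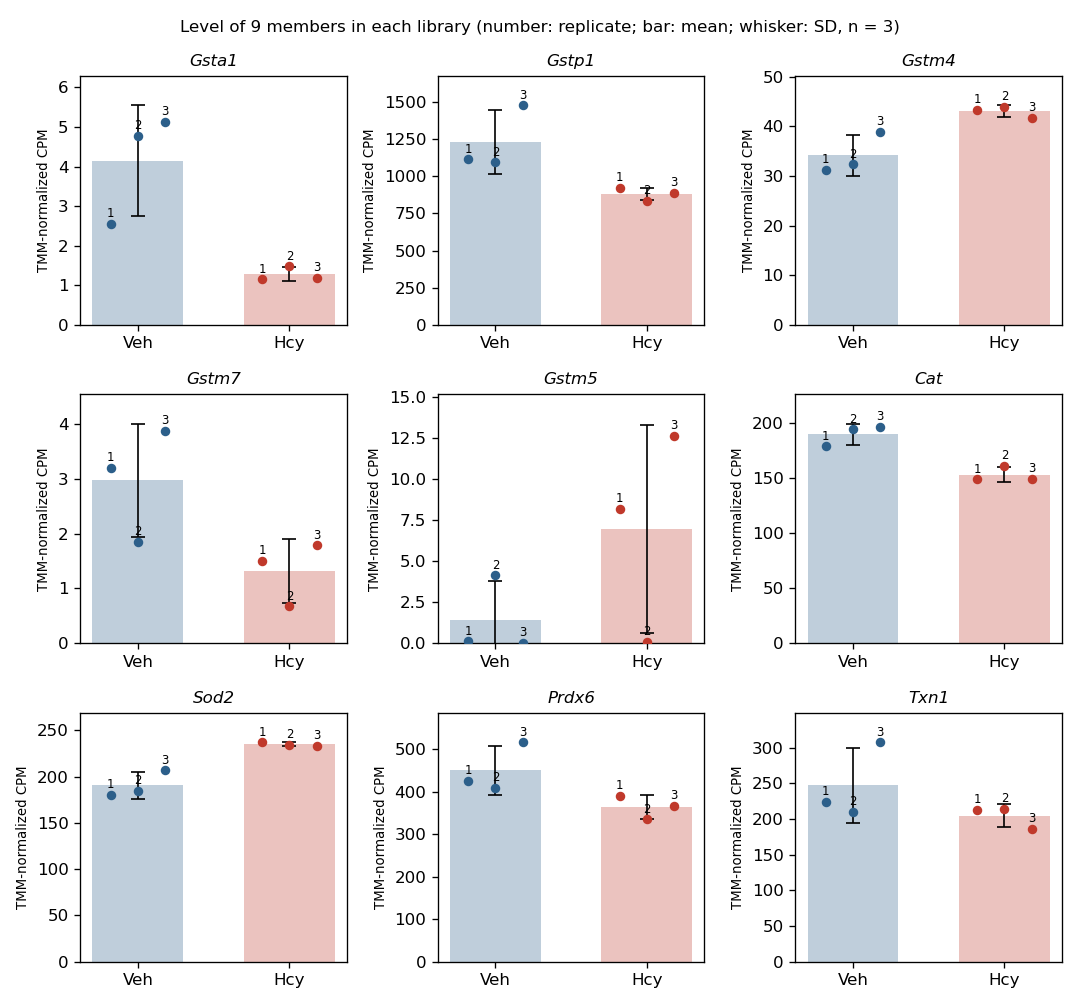
TMM-normalized CPM of 9 members in each library, with replicate numbers at the points, bars at the mean and whiskers of 1 SD (n = 3). Gsta1, Gstp1, Gstm7, Cat and Prdx6 have all Hcy points below the Veh points, Gstm4 and Sod2 have them above, and Gstm5 and Txn1 overlap.

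Cat and Sod2 had values in opposite directions. Cat (ENSRNOG00000008364, chromosome 3, 93379874 to 93412058, minus strand), the peroxisomal enzyme that splits hydrogen peroxide, was at 149, 161 and 150 CPM in Hcy and 179, 194 and 197 CPM in Veh replicates 1, 2 and 3. Sod2 (ENSRNOG00000019048, chromosome 1, 47914759 to 47921587, minus strand), the mitochondrial dismutase that makes hydrogen peroxide, was at 237, 234 and 233 CPM in Hcy and 180, 185 and 207 CPM in Veh replicates. The groups of neither gene overlapped, and the Hcy libraries of Sod2 were almost level. The log2 fold change was −0.31 for Cat (SE 0.07, 95% interval −0.47 to −0.15) and 0.30 for Sod2 (SE 0.07, 95% interval 0.13 to 0.47), with adjusted p = 0.0692 and 0.0850 from edgeR with Benjamini-Hochberg adjustment, so that neither passed. Both passed in DESeq2 (adjusted p = 0.0108 and 0.0128) and in edgeR without Veh replicate 3 (adjusted p = 0.0271 and 0.00324). These were 2 of 14 alternative fits for each gene. Neither passed when another library was left out (edgeR, adjusted p up to 0.295 for Cat and 0.279 for Sod2). Leaving out any of the other 5 libraries kept both directions, with log2 fold changes over all 6 such fits of −0.35 to −0.29 for Cat and 0.26 to 0.37 for Sod2. Cytosolic Sod1 was the highest of the family per length and was at 188, 163 and 159 CPM in Hcy and 180, 173 and 233 CPM in Veh replicates, with a log2 fold change of −0.20 (SE 0.12). Sod3, the secreted dismutase, was at 1.29, 1.01 and 1.07 CPM in Hcy and 0.415, 0.701 and 0.692 CPM in Veh replicates without overlap (log2 fold change 0.90, SE 0.38, edgeR with adjusted p = 0.338).

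Peroxiredoxins reduce peroxides through a cysteine and are restored mainly by thioredoxin. All 6 were tested, 4 with a negative and 2 with a positive log2 fold change, and none passed the test. Prdx1, the highest of the family per length, was at 446, 417 and 408 CPM in Hcy and 411, 458 and 536 CPM in Veh replicates 1, 2 and 3, which overlapped. Its log2 fold change was −0.15 (SE 0.10). An unnamed row on chromosome 2 with the same protein name held 752 to 986 reads per library. Reads may have been shared between that row and Prdx1. Prdx6, which uses glutathione and also acts on phospholipids, was at 390, 335 and 367 CPM in Hcy and 425, 409 and 517 CPM in Veh replicates. Its groups did not overlap, and its log2 fold change was −0.31 (SE 0.10, 95% interval −0.53 to −0.08, edgeR with Benjamini-Hochberg adjusted p = 0.201). Without Veh replicate 3 the value was −0.20 (SE 0.07, edgeR with adjusted p = 0.122). Prdx5 had 75.8, 69.2 and 66.8 CPM in Hcy and 76.0, 75.9 and 93.5 CPM in Veh replicates, and its groups were separated only narrowly, at 75.8 against 75.9 CPM (log2 fold change −0.21, SE 0.10, edgeR with adjusted p = 0.422). Prdx4, of the endoplasmic reticulum, was at 135, 129 and 131 CPM in Hcy and 110, 103 and 136 CPM in Veh replicates, so that Veh replicate 3 alone lay within or above the Hcy range. Prdx4 had a log2 fold change of 0.18 (SE 0.10, edgeR, adjusted p = 0.526), and without Veh replicate 3 it was 0.31 and passed the test (edgeR, adjusted p = 0.0162). Prdx2 and the mitochondrial Prdx3 had log2 fold changes of 0.02 (SE 0.13) and −0.01 (SE 0.09).

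Glutathione peroxidases use glutathione to reduce peroxides. Of 8 members, 6 were tested, 3 with a negative and 3 with a positive log2 fold change, and none passed the test. Gpx1, the cytosolic selenoenzyme and the highest of the family per length, was at 266, 235 and 227 CPM in Hcy and 241, 236 and 325 CPM in Veh replicates 1, 2 and 3, with a log2 fold change of −0.14 (SE 0.13). Its groups overlapped, and the Veh mean was raised by replicate 3. Gpx8, a membrane protein of the endoplasmic reticulum, was at 111, 110 and 105 CPM in Hcy and 114, 122 and 143 CPM in Veh replicates, without overlap (log2 fold change −0.22, SE 0.09, edgeR with Benjamini-Hochberg adjusted p = 0.351). Gpx7, also of the endoplasmic reticulum, had a log2 fold change of 0.10 (SE 0.10), the low Gpx3 and Gpx2 had 0.14 (SE 0.35) and −0.09 (SE 0.41), and Gpx5 and Gpx6 had 0 reads. Gpx4, the peroxidase of membrane lipids, had 2, 2 and 9 reads in Hcy and 0, 0 and 2 reads in Veh replicates, so that most libraries lay at or below the floor and no fold is given. The Gpx4 row overlaps Sbno2 on the opposite strand, a row with 703 to 882 reads in Hcy and 717 to 1036 reads in Veh libraries, and whether counting used the strand is not given in the sources used here. The level of Gpx4 in these cells can therefore not be read from its row.

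None of the member enzymes that carry or restore reducing power, which are the thioredoxins, Txnrd2, the glutaredoxins, Gsr and Gss, passed the test. Txn1, the cytosolic thioredoxin, was at 213, 215 and 186 CPM in Hcy and 224, 210 and 308 CPM in Veh replicates 1, 2 and 3, with a log2 fold change of −0.27 (SE 0.14, edgeR with Benjamini-Hochberg adjusted p = 0.459). The groups overlapped apart from Veh replicate 3, which was well above all others. The mitochondrial pair Txn2 and Txnrd2 had log2 fold changes of −0.02 (SE 0.10) and −0.05 (SE 0.13). Gsr, which restores glutathione, was at 80.4, 74.1 and 81.9 CPM in Hcy and 80.5, 81.6 and 88.5 CPM in Veh replicates, and Gss, which completes its synthesis, was at 68.4, 68.6 and 65.6 against 67.5, 65.7 and 78.6 CPM. Their log2 fold changes were −0.08 (SE 0.08) and −0.06 (SE 0.09). The 95% interval, not adjusted for the number of genes, ran from −0.26 to 0.09 for Gsr and from −0.26 to 0.13 for Gss. The glutaredoxins, which remove glutathione from protein cysteines, were led per length by the iron-sulfur protein Glrx3 at 242 CPM per kb, with 318, 306 and 305 CPM in Hcy and 315, 327 and 410 CPM in Veh replicates (log2 fold change −0.18, SE 0.10). Glrx, Glrx5 and Glrx2 had log2 fold changes of −0.14, −0.24 and 0.03, and none of the 4 passed the test.

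Grouped by place in the cell, 9 of 10 cytosolic enzymes had a negative log2 fold change, with a median of −0.14. These 10 were Gpx1, Prdx1, Prdx2, Prdx6, Glrx, Glrx3, Txn1, Sod1, Gsr and Gss, without the cytosolic transferases. Gpx2, Gpx4, Cat and the microsomal transferases were given no place and are in none of the groups. With the 13 tested cytosolic transferases added, 15 of 23 were negative and the median was −0.11. When Veh replicate 3 was left out, 7 of the 10 enzymes were negative with a median of −0.05, and with the transferases 12 of 23 with a median of −0.003. Of 8 mitochondrial enzymes 6 were negative, with a median of −0.04, but without Veh replicate 3 only 3 were negative and the median was 0.04. Of 5 enzymes of the secretory route (Prdx4, Gpx7, Gpx8 and the low Gpx3 and Sod3) 1 was negative, with a median of 0.14. This median was the value of Gpx3 (SE 0.35). Without Veh replicate 3 again 1 of the 5 was negative, with a median of 0.31. These are counts of signs over genes that share the same 6 libraries, beside 53.1% negative among all genes with all 6 libraries and 50.6% without Veh replicate 3. With all 6 libraries Gsta1 was the 1 enzyme among them that passed the test, and without Veh replicate 3 Gstp1, Gstm4, Sod2 and Prdx4 passed as well.

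The abundant members shared a feature that the treatment groups did not set, which was a high level in Veh replicate 3. In 27 of the 27 members at 10 CPM or more, this library was the highest of the 3 Veh libraries, beside 44.2% of all 8250 genes at that level. It was the highest of all 6 libraries in 22 of the 27 members (81.5%), beside 30.4% of all genes at that level. Within the Hcy group, Hcy replicate 1 was the highest in 21 of the 27 members (77.8%), beside 38.4% of all genes at that level. The median log2 ratio of Veh replicate 3 to the mean of Veh replicates 1 and 2 was 0.30 over these members, ranging from 0.07 to 0.64, and 0.01 over all genes at that level. Measured from each gene's mean over 6 libraries, the members' median was 0.27 in Veh replicate 3, −0.03 and −0.07 in Veh replicates 1 and 2, and 0.02, −0.08 and −0.07 in Hcy replicates 1, 2 and 3. This pattern was picked out after the values were seen and is given as a description. The same library had 4.81% of its reads on mitochondrial genes, against 3.94 to 4.35% in the others, and the lowest sum of endothelial markers, at 7283 CPM against 8413 to 9252 CPM, and the part of either in the members' levels was not tested.

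**Figure D4:**
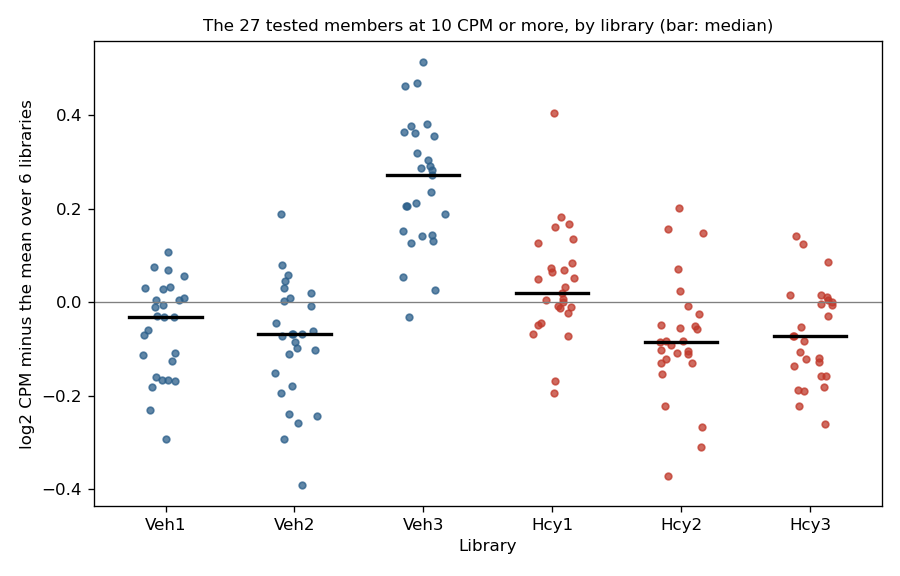
Log2 CPM of each of the 27 tested members at 10 CPM or more, minus that gene's mean over the 6 libraries, by library (points are genes and bars are medians). The median is 0.27 in Veh replicate 3 and between −0.08 and 0.02 in the other 5 libraries.

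Without Veh replicate 3 the members' values spread to both sides. Of the 42 members, 18 had a negative and 24 a positive log2 fold change, and the median was 0.02. Gsta1, Gstp1 and Cat were downregulated and Sod2, Gstm4 and Prdx4 were upregulated at an adjusted p of at most 0.05 (edgeR), which is 3 of 42 in each direction beside 3.18% and 3.48% of the 14352 genes tested in that fit. Leaving out this library raised the number of called genes in the whole table from 341 to 957, and it leaves 2 Veh libraries. Several negative values lay nearer to 0 and did not pass in either fit. Thus Glrx3 went from −0.18 to −0.05, Sod1 from −0.20 to −0.06, Txn1 from −0.27 to −0.09, Gstk1 from −0.43 to −0.17, Prdx5 from −0.21 to −0.11, Gpx8 from −0.22 to −0.12, Prdx1 from −0.15 to −0.04, Glrx from −0.14 to −0.06, Glrx5 from −0.24 to −0.09 and Mgst3 from −0.26 to −0.08. Some positive values grew without passing, namely Prdx2 from 0.02 to 0.20, Glrx2 from 0.03 to 0.17, Gsta4 from 0.04 to 0.20 and Gstm1 from 0.08 to 0.17. Gpx1, Gss, Txn2, Txnrd2, Prdx3, Gsto1, Mgst2 and Gpx2 turned from negative to positive, at 0.01 to 0.13. Of the 5 members added to the calls, none had a log2 fold change of 1 or more in size. Leaving out any other library gave at most 1 called member.

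The other genes of glutathione and thioredoxin metabolism were taken from a list of 78, of which 75 were listed and 69 tested, 34 of them with a negative log2 fold change. At an adjusted p of at most 0.05, 4 were upregulated and 3 were downregulated, beside 1.32% and 1.01% of all genes. The list was chosen with earlier results of these data known, so these counts are a description. Among the genes that break down or take up precursors, Chac1, which degrades glutathione in the cytosol, rose from 20.7 ± 2.84 CPM in Veh to 41.2 ± 1.45 CPM in Hcy (log2 fold change 0.99, SE 0.11, edgeR with Benjamini-Hochberg adjusted p = 0.00353). Slc1a5, a transporter of glutamine and other neutral amino acids, rose from 43.6 ± 0.812 to 64.4 ± 1.60 CPM (0.56, SE 0.07, edgeR, adjusted p = 0.00483). Dpep2, a dipeptidase placed in the list under glutathione turnover and export, rose from 8.08 ± 1.78 to 17.2 ± 1.21 CPM (1.09, SE 0.17, edgeR, adjusted p = 0.0128). The Hcy libraries of all 3 genes were above all Veh libraries, and the calls of Chac1 and Slc1a5 held whichever of the 6 libraries was left out. The call of Dpep2 was lost without Hcy replicate 1, 2 or 3 (edgeR, adjusted p = 0.0565, 0.0600 and 0.0807). Idh2, a mitochondrial source of NADPH, rose from 31.7 ± 1.52 to 43.8 ± 2.27 CPM (0.47, SE 0.08, edgeR, adjusted p = 0.0229). This call was lost without any of Hcy replicates 1, 2 and 3 and Veh replicates 1 and 2 (edgeR, adjusted p from 0.0810 to 0.118) and kept without Veh replicate 3.

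The downregulated genes of the list were Txnrd1 and the small transcription factors Maff and Mafk. Txnrd1, the cytosolic thioredoxin reductase, was at 337, 345 and 350 CPM in Hcy and 457, 434 and 428 CPM in Veh replicates 1, 2 and 3. Veh replicate 3 was the lowest Veh library for Txnrd1, unlike the abundant members. Txnrd1 had a log2 fold change of −0.35 (SE 0.06, edgeR with Benjamini-Hochberg adjusted p = 0.0232). Maff and Mafk, which pair with NRF2 on the antioxidant response element, fell from 627 ± 13.2 to 495 ± 4.76 CPM and from 206 ± 8.94 to 161 ± 4.39 CPM (edgeR, adjusted p = 0.0209 and 0.0303). With the replicate number as a block, the calls of Txnrd1 and Mafk were lost (edgeR, adjusted p = 0.0558 and 0.0709) and that of Maff was kept. All 3 calls were lost in each fit that left out Hcy replicate 1, 2 or 3 or Veh replicate 1 or 2. NRF2 itself, the gene Nfe2l2, was at 298 CPM in Hcy and 295 CPM in Veh (log2 fold change 0.01, SE 0.07). The rate-limiting enzyme of glutathione synthesis has the subunits Gclc and Gclm, which had log2 fold changes of −0.21 (SE 0.09) and −0.22 (SE 0.08) with adjusted p = 0.378 and 0.264 in edgeR. The cystine transporter Slc7a11 had −0.18 (SE 0.14). None of these 4 passed the test.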

How the data were processed

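RNA-seq of 6 libraries of rBMECs (3 Hcy and 3 Veh, grouped by their labels) was analysed. The authors deposited raw read counts per gene with gene positions and lengths. The submitters' processing notes name fastp, HISAT2 2.2.1, StringTie 2.2.3, Cufflinks, featureCounts 2.0.6 and DESeq2 1.42.0, without roles, and the builds mRatBN7.2 and rn7. The deposited table names no build, and its positions are printed as given. Strand use in counting is not given in the sources used here. A table of the authors' own DESeq2 comparison (fold changes and p-values) was not used.

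Genes with at least 10 counts summed over 6 libraries (14603 of 33566) were scaled with TMM factors (0.977 to 1.02) and compared with edgeR's quasi-likelihood test (edgeR 4.0.16, R 4.3.3), with condition as the only term and Benjamini-Hochberg adjustment over all genes tested. Calls required an adjusted p of at most 0.05, and for the stricter count also a log2 fold change of 1 or more in size. The SE was the log2 fold change divided by the square root of the test's F, and 95% intervals used the t distribution. CPM are TMM-normalized. Depths of 14024997 to 16764584 counts set the floor of 3 counts, which covers counting error only.

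Named were all members at an adjusted p of at most 0.05, the member highest per kb in each family, the 10 members with the smallest p, the largest changes among members at 1 CPM or more, and called genes of the wider list. Other members with values, and the pattern of Veh replicate 3, were chosen after their values were seen. The members and lists were chosen with earlier results of these data known. Promoter windows came from RefSeq (GRCr8). Alternatives were DESeq2 1.42.0, its size factors, library totals alone, no filter, filterByExpr, protein-coding genes, a replicate block, a prior count of 2 and leaving out each library. On simulated counts for 14371 genes, edgeR recovered 75 of 100 genes altered by 0.75 on the log2 scale and 97 of 100 altered by 1.5, with 15 wrong calls. The altered genes were drawn from genes with more reads on average than Gsta1, and smaller changes were not simulated. The recovery therefore does not apply to members with few reads or small changes.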

Additional observations from a re-analysis of the deposited data

How the results depend on the processing

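DESeq2 called 3 members lower and 1 higher at an adjusted p of at most 0.05, and edgeR with no count filter called 2 lower. In fits that left out each library in turn, 0 to 3 members were called lower and 0 to 3 higher, and 0 to 1 lower with the fold threshold. The largest counts came without Veh replicate 3, and the call of Gsta1 was lost without Hcy replicate 1, 2 or 3 or Veh replicate 2. Of the wider pathway list, 0 to 4 genes were called lower and 2 to 6 higher in these fits. The cause of these shifts was not tested. The median log2 fold change of the members ranged from −0.12 to 0.02, being positive without Veh replicate 3.

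The log2 fold change changed sign in some fits without a library for Gpx1 (−0.22 to 0.023), Prdx2 (−0.059 to 0.20), Txn2 (−0.10 to 0.082), Prdx3 (−0.10 to 0.061), Gss (−0.12 to 0.019), Glrx2 (−0.052 to 0.17), Gsto1 (−0.25 to 0.13), Mgst2 (−0.25 to 0.081), Gsta4 (−0.17 to 0.21), Txnrd2 (−0.10 to 0.013), Gstt2 (−0.043 to 0.79), Gpx3 (−0.21 to 0.36), Mgst1 (−0.16 to 0.41) and Gpx2 (−0.41 to 0.11). No member changed sign under the other alternatives, which for Gsto2 and Gpx4 did not include DESeq2 or filterByExpr. Over all genes, 341 were called at an adjusted p of at most 0.05 in edgeR, 612 with DESeq2, 463 with no count filter, 957 without Veh replicate 3 and 80 to 151 without another library. With the fold threshold, 71 were called in edgeR, 109 with no count filter, 112 without Veh replicate 3 and 39 to 60 without another library.

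With the replicate number as a block, 1 member (Gsta1) was called lower as before, 1 gene of the wider list (Maff) was called lower in place of 3, since Txnrd1 and Mafk lost their calls, and no other named call changed. All genes together then had 298 calls, and 82 with the fold threshold. Deviations of same-numbered libraries correlated at 0.02, 0.17 and 0.06 for replicates 1, 2 and 3, so the numbers were not taken to pair the samples.

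Members with few reads, such as Gsta1, Gstm7, Sod3 and Gpx4, are limited by counting error. Any reads shared between related or overlapping rows cannot be separated.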
